A study of Mus musculus with 6 samples.

Results

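mmu-miR-574-5p, mmu-miR-574-3p and mmu-miR-1187 (the species prefix mmu is left out from here on) were followed in exosomes of the mouse macrophage line RAW 264.7. The 3 members were taken by name from the 1881 mouse miRNAs on the array, with every probe that carries the name, to set 2 miRNAs built from U and G repeats beside the other arm of one of their hairpins. They were chosen by name, with the LPS minus control difference of signal on these same arrays known, so that difference is given as a description, and no test is read from it. The LPS group held 3 samples of exosomes from cells that had received 2 µg/mL lipopolysaccharide (LPS), with the supernatant taken after 72 h, and the control group held 3 samples from untreated cells, for which no culture time was given. RAW 264.7 is 1 transformed line, exosomes came from size-exclusion columns with fractions combined, and nothing in the labels says that replicates were separate cultures, so their spread may be technical.

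A miRNA is cut from a hairpin RNA whose arms, named 5p and 3p, pair with each other, and either arm can be loaded into an Argonaute protein, where bases 2 to 8, the seed, choose the target mRNAs. miR-574 is made from a single hairpin found across mammals, and its 5p arm is known in human cells to bind the RNA-binding protein CUGBP1 and, when extracellular, to engage the RNA-sensing receptors TLR7 and TLR8. LPS is a bacterial cell wall component sensed by TLR4 on macrophages. Simple U and G repeats also occur in other RNA.

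The mature sequences are shown because the members differ in repeat content; they are RefSeq's, on GRCm38.p6, with the seed in capitals. All 3 members matched by name, and both hairpins lie on chromosome 5.
miR-574-5p, chr5:64970328-64970350, plus strand: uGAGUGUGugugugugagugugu
miR-574-3p, chr5:64970364-64970385, plus strand: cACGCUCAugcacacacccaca
miR-1187, chr5:82798964-82798986, minus strand: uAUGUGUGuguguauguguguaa
The longest strictly alternating run of U and G was 13 bases in miR-574-5p, which no other of the 1608 array miRNAs with a RefSeq sequence reached, and 11 bases in miR-1187. Array miRNAs without a RefSeq sequence, miR-466i-5p among them, were not measured for such runs. U and G made up 91.3% of miR-574-5p, 82.6% of miR-1187 and 18.2% of miR-574-3p. No other array miRNA with a RefSeq sequence had the seed of any member. The RefSeq gene table places the miR-574 hairpin within the bounds of Fam114a1 and of Tlr6, which encodes a Toll-like receptor, and shows no other gene over the miR-1187 hairpin.

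The hairpins show where the arms sit, with the mature sequences in capitals.
Mir574: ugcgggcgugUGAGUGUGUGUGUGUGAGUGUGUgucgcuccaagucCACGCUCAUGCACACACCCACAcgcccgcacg
Mir1187: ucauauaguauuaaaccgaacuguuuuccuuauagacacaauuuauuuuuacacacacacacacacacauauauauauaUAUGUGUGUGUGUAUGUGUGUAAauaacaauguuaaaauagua
In the miR-1187 hairpin a long A and C repeat lies upstream of the mature sequence.

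The probes of the 3 members are complementary to the 3′ end of each mature miRNA and leave the seed partly or wholly uncovered. The longest probe of each member is given 5′ to 3′, with stretches of CACACA or TGTGTG in capitals.
Probe of miR-574-5p, mature bases 6 to 23: acacactCACACACACAc
Probe of miR-574-3p, mature bases 8 to 22: tgtgggTGTGTGcat
Probe of miR-1187, mature bases 5 to 23: ttaCACACAtaCACACACA
The scanner files list no genome position (their build is mm9) for any of the 8 probes of the members. The targets of these probes were compared with 1678 other mature mouse miRNAs that have a RefSeq sequence. miR-466i-5p, whose longest probe is a bare CA repeat, has none and was not compared. Among those compared, the longest stretch shared with the target of the 18-base miR-574-5p probe was 10 bases, in miR-1187, miR-3082-5p and miR-32-3p. The target of the 19-base miR-1187 probe likewise shared 10 bases with miR-466j and miR-466k. For the 15-base miR-574-3p probe the longest shared stretch was 9 bases, in miR-329-3p and miR-466q.

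Each one-colour Agilent array gave a background-subtracted brightness for every spot. The LPS arrays detected 412 to 446 miRNAs and the control arrays 213 to 228. The 75th percentile of signal over the 198 miRNAs detected on all 6 arrays was 2229 ± 180 in LPS and 477 ± 41.0 in control (SD, n = 3 each), a ratio of 4.67. The 4 spiked-in RNAs averaged 2377 ± 181 in LPS and 2707 ± 83.9 in control (SD, n = 3 each), a ratio of 0.878. Of 6 macrophage miRNAs, 5 were detected on all 6 arrays and the other on the 3 LPS arrays only. Their summed signal was 55606 to 70621 in LPS and 4691 to 5731 in control. The erythroid markers miR-451a, miR-486a-5p and miR-144-3p and the muscle markers miR-1a-3p, miR-133a-3p and miR-206-3p were detected on no array. Of 3 liver or serum, 3 epithelial and 3 neural markers, 1 each was detected, in LPS only; their part in the results was not tested. With 3 arrays a group, precision is limited by their number.

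miR-574-5p was bright on every array and dimmer in LPS exosomes. Its 18-base probe read 1269, 1503 and 1476 units in LPS replicates 1, 2 and 3, against 2085, 2079 and 2062 units in control replicates 1, 2 and 3, before any scaling between arrays. LPS replicate 1 was the lowest. The mean signal was 1416 ± 128 units in LPS and 2075 ± 11.9 in control (SD, n = 3 each), a ratio of 0.682. The 17-base probe gave 798 ± 106 units in LPS and 1209 ± 43.5 in control (SD, n = 3 each), a ratio of 0.660, so both probes differed in the same direction by nearly the same factor. Every kept spot of both probes was well above background on every array, none was saturated, and the spots of the 18-base probe had a coefficient of variation of 3.13% to 7.85% within an array.

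miR-1187, a miRNA annotated in mouse, was likewise detected on all 6 arrays and dimmer in LPS. Its 19-base probe read 395, 522 and 486 units in LPS replicates 1, 2 and 3, against 853, 835 and 818 units in control replicates 1, 2 and 3. LPS replicate 1 was again the lowest. The spiked-in RNAs were also dimmest on that array, at 2168 units against 2480 and 2483 on LPS replicates 2 and 3. The part of array brightness in these readings was not tested. The mean was 468 ± 65.3 units in LPS and 835 ± 17.7 in control (SD, n = 3 each), a ratio of 0.560. The 18-base probe gave a ratio of 0.540, from 325 ± 63.0 units in LPS and 602 ± 17.9 in control (SD, n = 3 each). Slide rows were read from the position in each array's deposited name. By that reading LPS replicate 1 lies in the first row, as do the 3 controls. Spots of this 18-base probe varied most on LPS replicate 1, by 24.2%, against 3.76% to 12.6% on the other arrays.

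**Figure D1:**
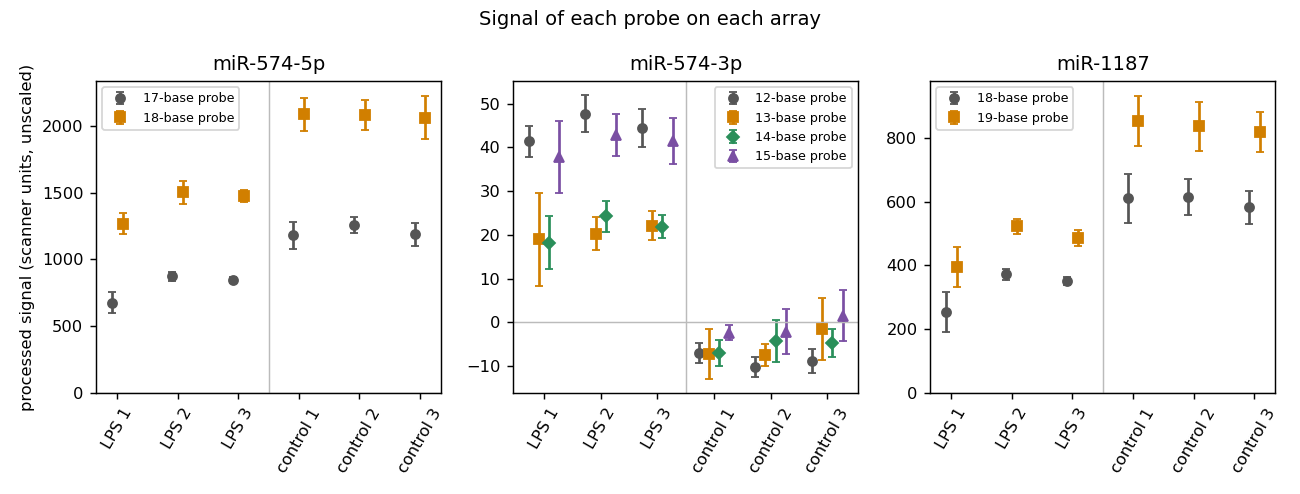
Background-subtracted signal of each probe of the 3 members on each array, in scanner units with no scaling between arrays. Points are means over kept spots, bars are the SD over those spots, and LPS arrays stand left of control arrays. miR-574-5p and miR-1187 are dimmer on the 3 LPS arrays with both probes, while all 4 probes of miR-574-3p are near or below 0 on control arrays and between 18.2 and 47.7 on LPS arrays.

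miR-574-3p, the other arm of the miR-574 hairpin, was detected on 3 of 3 LPS arrays and on no control array. This pattern was common, held by 187 of the 412 miRNAs tested, while 3 showed the reverse. Its 15-base probe read 37.8, 42.9 and 41.5 units in LPS replicates 1, 2 and 3, against −2.33, −2.09 and 1.51 units in control replicates 1, 2 and 3. The LPS values stood apart from the control values, which were at background. Only 2 of its 4 probes were well above background in LPS: the 12-base probe on 18 of 18 kept spots and the 15-base probe on 18 of 21. The 13-base probe passed on 1 of 22 kept LPS spots and the 14-base probe on 0 of 21, with means of 20.5 ± 1.57 and 21.5 ± 3.05 units (SD, n = 3). No kept spot of any of the 4 probes was well above background on a control array. A control level below background gives only a limit, taken on each array as the lowest signal of any probe with over 50% of its spots well above background, which was 31.1 to 34.4 units on the control arrays. Before scaling, miR-574-3p was at least 1.26-fold higher in LPS by this limit, but with a limit from probes whose spots all passed the bound was 0.959, below 1, so that no fold can be given. Scaled to the spiked-in RNAs the bound was at least 1.44-fold, and at least 1.09-fold with the stricter limit.

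Dividing each array by its 75th percentile widened the differences of the bright members. On the scaled log2 scale miR-574-5p was at 9.33, 9.37 and 9.35 in LPS replicates 1, 2 and 3, against 12.28, 12.03 and 12.08 in control replicates 1, 2 and 3. The difference was −2.78 (SE 0.07 from limma), or 6.87-fold lower in LPS. miR-1187 was at 7.65, 7.84 and 7.75 in LPS replicates 1, 2 and 3, against 10.99, 10.72 and 10.74 in control replicates 1, 2 and 3, a difference of −3.07 (SE 0.09), or 8.40-fold lower. For both, the LPS arrays lay below all controls, in a comparison where 92.2% of the 412 miRNAs tested were called in either direction. Among the 198 miRNAs detected on all 6 arrays, miR-1187 had the 17th lowest difference and miR-574-5p the 25th lowest; the miRNAs next to miR-574-5p in that order, miR-3082-5p at −2.79 (SE 0.09) and miR-3095-3p at −2.75 (SE 0.06), differed from it by less than these errors. miR-1187 lay between miR-3099-3p at −3.08 and miR-5113 at −3.05, within its own error of both. miR-574-3p was at 4.27, 4.23 and 4.20 in LPS, while the control limit averaged 6.12, above the LPS level, so its direction could not be read under this scaling. All 3 members passed the filter, miR-574-3p only through its LPS arrays. In the limma fit over 412 miRNAs, miR-574-5p and miR-1187 were called lower, as were 26.7% of the miRNAs tested, and miR-574-3p was called higher from the floor set for dim values, as were 65.5%; either direction was called for 92.2%.

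**Figure D2:**
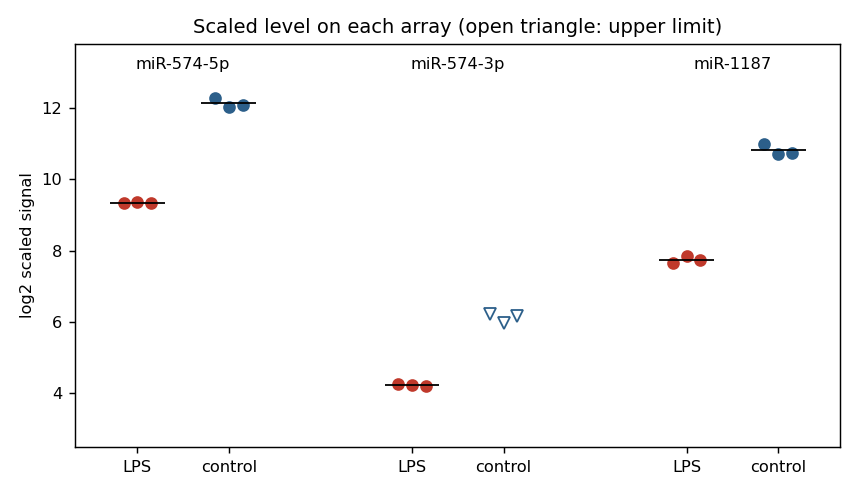
Scaled log2 signal of the representative probe of each member, 3 LPS arrays left of 3 control arrays, with a line at the group mean. Open triangles are the upper limit on control arrays where miR-574-3p was not well above background; they average 6.12 and lie above the LPS level, so no direction can be read there.

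A ratio of 2 members on one array does not move when the whole array is scaled. The log2 ratio of miR-574-5p to miR-574-3p was 5.07, 5.13 and 5.15 in LPS replicates 1, 2 and 3, against at least 6.06, 6.06 and 5.91 in control replicates 1, 2 and 3, where miR-574-3p stands at its limit. No LPS ratio reached the lowest control limit. By this limit the difference in the log2 ratio was −0.89 or lower, but with the stricter limit it was −0.50, so the smaller size is the one both limits allow. The log2 ratio of miR-1187 to miR-574-3p was 3.51 ± 0.11 in LPS and at least 4.70 ± 0.11 in control (SD, n = 3 each), a difference of −1.18, or −0.79 with the stricter limit. Both ratios rest on miR-574-3p, which was detected in LPS only. The log2 ratio of miR-574-5p to miR-1187 was 1.68, 1.53 and 1.60 in LPS replicates 1, 2 and 3, against 1.29, 1.32 and 1.33 in control replicates 1, 2 and 3. The group means differed by 0.29. With 3 arrays against 3 an exact permutation test cannot go below p = 0.1, and no test of these ratios is given.

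**Figure D3:**
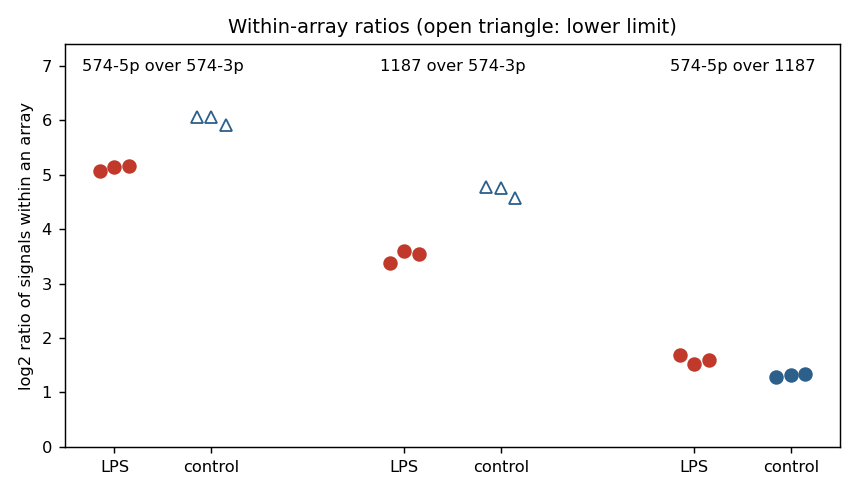
Log2 ratio of the signals of 2 members on the same array, LPS left of control. Open triangles are lower limits, because miR-574-3p was not well above background on control arrays. Both ratios over miR-574-3p are lower in LPS than the control limits, and the ratio of miR-574-5p to miR-1187 is 0.29 higher in LPS.

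The size of the difference depended on the scaling of arrays, and its direction for the bright members did not in any alternative tried. The gene total, described below, was tried only after division by the 75th percentile. Without scaling the log2 difference was −0.56 for miR-574-5p and −0.85 for miR-1187, and scaled to the spiked-in RNAs it was −0.37 and −0.66. In the authors' deposited value table miR-574-5p was at 9.20, 9.25 and 9.24 in LPS and 11.59, 11.55 and 11.55 in control, a log2 difference of −2.33. miR-1187 was there at 7.49, 7.73 and 7.65 in LPS and 10.72, 10.64 and 10.62 in control, a difference of −3.03. The median of the 198 miRNAs moved with the scaling too, at 0.77 with the 75th percentile, 2.99 without scaling and 3.18 with the spiked-in RNAs. Each of these 3 scalings shifts every miRNA of an array alike, so the log2 gap to that median was by construction the same, at −3.55 for miR-574-5p and −3.84 for miR-1187. Where the processing could change it, the gaps of miR-574-5p and miR-1187 were −2.71 and −2.92 with normexp background correction, −2.82 and −3.12 with the gene total, and −2.86 and −3.56 with the value table. Within the first slide row, with LPS replicate 1 alone against the 3 controls, the differences were −2.76 and −3.13.

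Before scaling, the total signal that the scanner software gives per miRNA did not separate the groups for miR-574-5p. Its unscaled totals were 558, 696 and 668.6 in LPS replicates 1, 2 and 3, against 692, 708 and 689 in control replicates 1, 2 and 3, and the groups overlapped. For miR-1187 they were 186, 262 and 241 in LPS, against 310, 307 and 296.8 in control. These totals carry a spot size factor that the headers give as 0.812 to 0.829 on LPS arrays and 0.6 on every control array; its part in the totals was not tested. For miR-574-3p they were 11.4, 16.6 and 12.4 in LPS, against 1.47, 1.38 and 1.53 in control, where the files mark it as not detected.

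**Figure D4:**
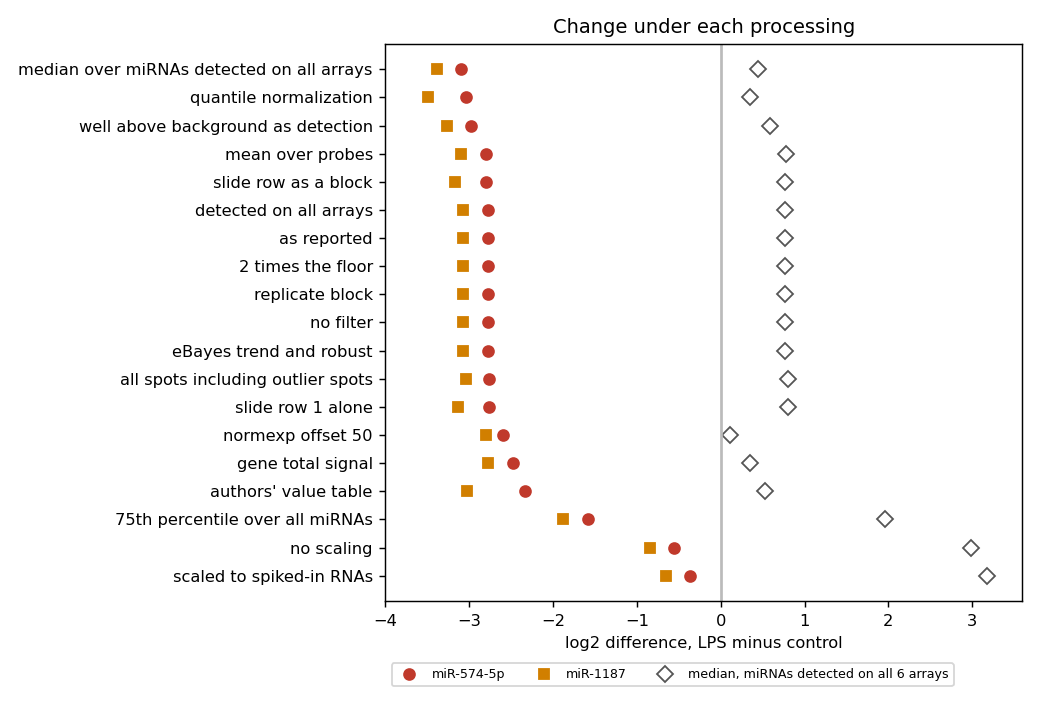
Log2 difference, LPS minus control, of miR-574-5p (circles), miR-1187 (squares) and the median of the miRNAs detected on all 6 arrays (open diamonds) under each processing, leave-one-out fits not drawn. Both miRNAs lie below 0 throughout, from −3.10 to −0.37 and from −3.49 to −0.66, and the median lies above 0 throughout.

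Other miRNAs with UGUGUG in the mature sequence were mostly undetected, as were most miRNAs on the array, and the 4 others detected on all 6 arrays split 3 lower to 1 higher. This list held 25 of the 1608 array miRNAs with a RefSeq sequence, both repeat-like members included. miR-466i-5p has no RefSeq sequence and could not enter it. Of the 25, 16 were detected on no array, and 9 passed the filter, of which 5 were called lower, 2 higher and 2 neither. Of all 1881 array miRNAs, 1417 were detected on no array, and of the 412 tested 110 were called lower, 270 higher and 32 neither. Without miR-574-5p and miR-1187, whose differences were known when they were chosen, the median log2 difference of the 4 detected on all arrays was −2.76, against 0.79 over the 196 such miRNAs that are not members, of which 74 were called lower and 115 higher. With so few miRNAs these counts are a description. These 4 are shown with UGUGUG stretches in capitals.
miR-3082-5p: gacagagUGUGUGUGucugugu
miR-32-3p: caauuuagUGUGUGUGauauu
miR-669n: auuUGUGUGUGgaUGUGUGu
let-7b-5p: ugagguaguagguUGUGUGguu
miR-3082-5p was at −2.79 (SE 0.09) and miR-669n at −2.73 (SE 0.14). miR-32-3p, the 3p arm of the miR-32 hairpin, was well above background on no LPS array. With each array divided by its percentile, miR-32-3p was at least 5.67-fold lower. That bound depends on the scaling. It was not computed without scaling, with scaling to the spiked-in RNAs or with the stricter limit. let-7b-5p, of the let-7 family that restrains growth genes, was at 1.24 (SE 0.04), and its alternating run of 6 bases was the shortest of these 4. The 3 members of the list that passed only through LPS, miR-294-3p, miR-7226-5p and let-7k, gave no fold, because their control limits lay above their LPS levels.

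**Figure D5:**
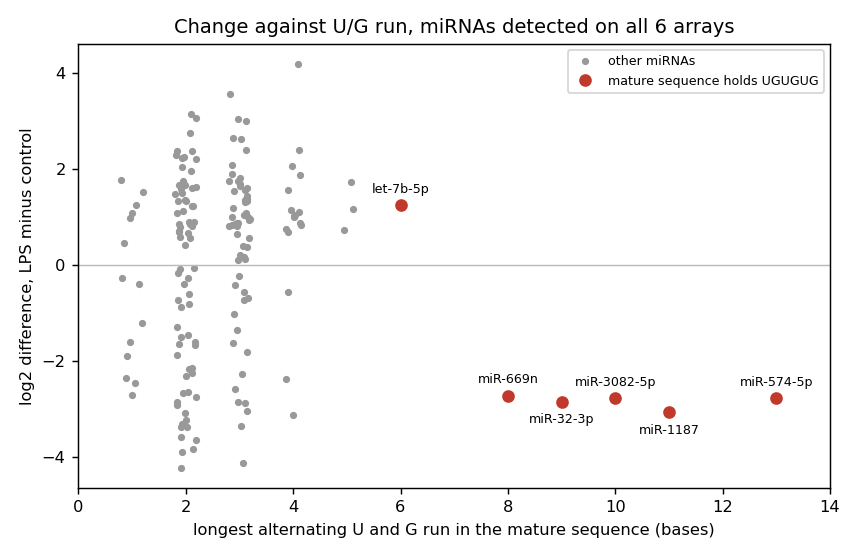
Log2 difference, LPS minus control, against the longest alternating run of U and G in the mature sequence, for the 171 miRNAs detected on all 6 arrays that have a RefSeq sequence. Grey points are spread sideways within a run length for legibility. The 5 miRNAs with runs of 8 or more bases lie between −3.07 and −2.73 and let-7b-5p, with a run of 6, lies at 1.24, while shorter runs span both directions.

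The miR-297, miR-466, miR-467 and miR-669 families, rodent miRNAs many of which come from an intron cluster of Sfmbt2, were mostly undetected. Of 61 on the array 50 were detected nowhere and 11 passed the filter, against 1417 and 412 of all 1881 array miRNAs. The 2 detected on all 6 arrays, miR-669n and miR-466i-5p, were called lower, miR-466i-5p at −2.70 (SE 0.07). The other 9 were called higher, but they passed the filter only through LPS and were not detected in control, so these calls are a description. Over all 412 miRNAs tested, 65.5% were called higher and 26.7% lower. miRNAs with CACACA in the mature sequence, as in miR-574-3p, numbered 12 on the array. Of these 6 passed the filter and all 6 were called higher. However, 5 of them, miR-574-3p included, passed only through LPS and were not detected in control, so these calls are a description too. The one detected on all 6 arrays was miR-342-3p, a myeloid miRNA, at 0.90 (SE 0.05).

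Profiles most like those of miR-574-5p and miR-1187 came from miRNAs with and without the repeat. Likeness was the root mean square difference of mean-centred scaled log2 values over the 6 arrays, among 197 other miRNAs detected on all of them; with 2 groups it mainly reads the size of the LPS difference. For miR-574-5p the nearest were miR-3082-5p at 0.039, miR-466i-5p at 0.042 and miR-3095-3p at 0.056, and miR-1187 came 15th at 0.15. For miR-1187 the nearest were miR-3099-3p at 0.10, miR-7011-5p at 0.10 and miR-6938-5p at 0.11. Their longest probes are shown with stretches of CACACA in capitals.
Probe of miR-3082-5p: acacagaCACACACAc
Probe of miR-466i-5p: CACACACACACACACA
Probe of miR-3095-3p: aaaagctctctctccagt
Probe of miR-3099-3p: tccccaacctctctc
Probe of miR-7011-5p: acacctccctctccc
Probe of miR-6938-5p: actctctctggagctagc
The probes of the 2 nearest to miR-574-5p held CACACA, and those of the other 4 did not. Their log2 differences were between −3.13 for miR-7011-5p and −2.70 for miR-466i-5p.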

How the data were processed

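Each of the 6 arrays, 1 per sample, was deposited as Agilent Feature Extraction output, whose linear intensity had the background already removed, per the file headers (version 10.7.1.1; the submitters' processing notes name 9.1); the array's build was mm9. The label protocol names a cRNA amplification kit from 0.5 µg RNA. A table of values that the authors deposited is log2, judged from its range (column medians 2.73 to 2.74); its normalization and centring are not given in the sources used here. Signals were averaged over non-outlier spots, and the brightest probe stood for each miRNA. Arrays were divided by their 75th percentile (198 miRNAs detected everywhere), floored at 9.89 units (3.31 on the log2 scale) and log2-transformed. The 412 miRNAs detected on all arrays of at least 1 group were fitted with limma 3.58.1 (R 4.3.3, Benjamini-Hochberg, threshold 0.05), a fit tested on simulated data. Members and lists were chosen with earlier results of these data known. Named miRNAs were the members, the 3 most alike, the 3 highest and 3 lowest of the UGUGUG list, seed sharers and markers; other family and list miRNAs, neighbours in rank and those sharing probe letters were named after their values were seen. No 2 arrays held identical values. Alternatives were other scalings, backgrounds, signals, filters, floors, blocks and left-out replicates.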

Additional observations from a re-analysis of the deposited data

How the results depend on the processing

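The differences of miR-574-5p and miR-1187 were negative in 25 of 25 alternatives each, from −3.10 to −0.37 and from −3.49 to −0.66. This count is a description and not a test, because several alternatives could not move these values. No filter, detection on all arrays, 2 times the floor, the replicate block, another limma variance setting and the stricter limit each returned −2.78 and −3.07. The 25 also include leaving out each array in turn, which gave −2.83 to −2.77 and −3.12 to −3.02. Slide row 1 has 1 LPS array, whose spread is assumed to be that of the controls. miR-574-3p, at 0.93 with control at the floor, was −0.57 with normexp, 0.054 and not called with the gene total, and 0 with well above background as detection, with 2 times the floor and within slide row 1, where both groups lay at the floor; without one array it was 0 to 0.95, and 0 without LPS replicate 1 or LPS replicate 3, each with its own floor. The bound between the miR-574 arms (−0.89) was −1.11 with quantile normalization, −0.80 with normexp, −1.88 with the value table, −1.79 with the mean over probes and −0.50 with the stricter limit, chosen after seeing the data. The bound of miR-1187 against miR-574-3p (−1.18) was −1.56, −1.004, −2.58, −2.08 and −0.79 under the same settings and −1.31 within slide row 1; leave-one-out ranges are −0.94 to −0.86 and −1.24 to −1.12. The median of the UGUGUG miRNAs detected on all arrays (−2.78) includes miR-574-5p and miR-1187, whose differences were known when they were chosen. Without these 2 members it was −2.76, which was not computed under the other settings. With them it was −1.59 with a percentile across every miRNA, −0.56 unscaled, −3.10 with median centring, −2.97 with quantile normalization, −0.37 with spiked-in RNAs, −2.18 with normexp, −2.47 with the gene total, −2.96 with the value table, −2.60 with well above background as detection and −2.46 within slide row 1, and −2.83 to −2.50 without one array. Of 412 miRNAs, 270 were called higher and 110 lower; higher calls were 113 with normexp, 115 among those detected on every array, and 170 using well above background as detection, and lower calls were 59 with a percentile across every miRNA, 39 unscaled, 38 with spiked-in RNAs, 284 with normexp and 269 with no filter; without one array they were 187 to 269 and 85 to 119. Higher calls were 71.1% of all calls, against 85.1%, 90.3%, 90.7% and 28.5% in turn for a percentile across every miRNA, no scaling, spiked-in RNAs and normexp. Causes were not tested beyond those stated. Same-numbered arrays did not deviate together (r of −0.40, −0.22 and −0.28), but 3 arrays a group cannot show whether the numbers pair samples. With the replicate block 270 were higher and 110 lower, with the members at −2.78, 0.93 and −3.07 for miR-574-5p, miR-574-3p and miR-1187. Signal near background limits miR-574-3p in control.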

Other observations

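Reading the list by probe rather than by mature sequence, a choice made after the data were seen, gave 40 array miRNAs with a probe that holds CACACA, the complement of UGUGUG. Of these, 10 passed the filter and 7 were detected on all 6 arrays, with a median log2 difference of −2.78. That median is the value of miR-574-5p itself, a member chosen with its difference known. Of the 7, which include miR-574-5p and miR-1187, 6 were called lower in LPS and 1, let-7b-5p, higher, against 76 lower, 115 higher and 7 neither of all 198 miRNAs detected on all 6 arrays. Without the members, miR-32-3p, miR-3082-5p, miR-669n and miR-466i-5p were called lower and let-7b-5p higher. miR-466i-5p, whose longest probe is the bare repeat, was among the lower ones at −2.70 (SE 0.07).

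For miR-574-5p and miR-1187 the ratio of the shorter to the longer probe was lowest on LPS replicate 1. The signal of the 17-base over the 18-base probe of miR-574-5p was 0.533, 0.581 and 0.572 in LPS replicates 1, 2 and 3, against 0.566, 0.605 and 0.576 in control replicates 1, 2 and 3, so that LPS replicate 1 lay below every control while the groups overlapped. The signal of the 18-base over the 19-base probe of miR-1187 was 0.641, 0.711 and 0.723 in LPS, against 0.716, 0.736 and 0.712 in control, with LPS replicate 1 again below every control and the groups overlapping.

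By length of the alternating U and G run, the miRNAs detected on all 6 arrays had median log2 differences of −0.33 with a run of at most 1 base (14 miRNAs), 0.57 with 2 bases (73 miRNAs), 0.87 with 3 bases (58 miRNAs), 1.02 with 4 bases (17 miRNAs) and 1.16 with 5 bases (3 miRNAs). The 6 miRNAs with a run of 6 bases or more had a median of −2.78, and they hold both repeat-like members. These run lengths were compared after the data were seen.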
